A study of Mus musculus with 12 samples.

Results

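Among the genes that hypoxia-inducible factor (HIF) is known to switch on, 9 that encode secreted or regulatory proteins rather than enzymes of glycolysis were followed in mouse collecting duct cells: Vegfa, Adm, Angptl4, Edn1, Ndrg1, Car9, Ankrd37, Kdm3a and Mxi1. They were taken by symbol from the deposited gene table, and all 9 were found among its 45777 genes. The cells were mpkCCDc11, a line from the mouse kidney cortical collecting duct, labelled wild type and epithelial. They had been grown on permeable filters for 3 days and then kept for 24 h without serum or hormones. A control siRNA was used beside one directed at TAZ (Wwtr1), a coactivator of the Hippo pathway, and each was followed by vehicle or by dDAVP, a synthetic agonist of the vasopressin V2 receptor, at 1e-09 M on the basolateral side. This gave 4 groups of 3 libraries: control siRNA with vehicle, control siRNA with dDAVP, TAZ siRNA with vehicle and TAZ siRNA with dDAVP. The labels list exposures to dDAVP of 15 min, 30 min and 24 h without saying which these libraries had. Nothing in them tells whether replicates are separate cultures, and p-values therefore reflect only how far these libraries differ, which may be technical. All groups are 1 cell line, all had an siRNA, and the labels name no oxygen level.

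HIF is a dimer of an oxygen-sensitive alpha subunit (HIF-1alpha from Hif1a, or HIF-2alpha from Epas1) and the stable partner ARNT. In oxygen, prolyl hydroxylases of the EGLN family mark the alpha subunit for destruction through the VHL ubiquitin ligase. When oxygen is low, the dimer binds the core letters ACGTG or GCGTG in the promoters and enhancers of its targets. In the kidney the collecting duct runs into the poorly oxygenated medulla, where such genes are normally active. The secreted products among the 9 act on vessels (VEGF-A, adrenomedullin and endothelin-1) or on lipid uptake (ANGPTL4), while the others act inside or at the surface of the cell.

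Library totals ran from 45095331 to 61725339 estimated counts, and levels are given as CPM, counts scaled to 1e6 per library. Wwtr1 was lower in every library with TAZ siRNA, at 117 ± 2.02 CPM against 181 ± 4.57 with vehicle and 114 ± 10.0 against 165 ± 6.41 with dDAVP (SD, n = 3 each). Aqp2, the water channel that vasopressin induces, was at 34.3 CPM with dDAVP and 0.34 with vehicle under control siRNA, and at 11.0 and 0.0486 under TAZ siRNA. All 10 markers of collecting duct principal cells were detected, with Cdh1 at 1220 to 1290 CPM but Scnn1b at only 0.244 to 1.19 CPM. Aqp2 had no count in replicates 2 and 3 with TAZ siRNA and vehicle. Of the 10 markers, 5 were called higher with dDAVP under each siRNA (Aqp2, Avpr2, Krt8, Krt18 and Gata3). Scnn1a, a subunit of the sodium channel, was called lower under each, from 129 to 89.2 CPM under control siRNA. Krt18, at 663 CPM with vehicle and 1040 with dDAVP under control siRNA, and Krt8, at 641 and 934, carried most of the rise in the summed level of the list with dDAVP (3490 to 3650 CPM with vehicle and 4160 to 4320 with dDAVP under control siRNA, 3520 to 3750 and 3920 to 4090 under TAZ siRNA). With TAZ siRNA, Avpr2 was called lower under vehicle. Under dDAVP, TAZ siRNA gave lower calls for Aqp2, Avpr2, Krt18 and Epcam and a higher call for Scnn1a. The part of these principal cell markers in the results below was not tested. Several defining markers of other cells were at 0: Kdr and Emcn (endothelium), Col1a2, Dcn and Lum (fibroblasts), Adgre1 and Cd3e (immune cells) Foxi1, Slc26a4 and Atp6v1g3 (intercalated cells) and Slc5a12 (proximal tubule) had no count in any library. Single markers of other tubule cells were high: the intercalated Atp6v1b1, at 81.6 to 105 CPM, and the proximal Lrp2, at 125 to 189 CPM. Lrp2 was called lower with dDAVP and with TAZ siRNA in all 4 comparisons of groups, in the direction of the TAZ siRNA changes below, and its part in them was not tested. The 6 proximal markers summed to 180 to 190, 152 to 167, 140 to 155 and 126 to 136 CPM in the groups with control siRNA and vehicle, control siRNA and dDAVP, TAZ siRNA and vehicle, and TAZ siRNA and dDAVP. The 6 endothelial markers summed to between 6.72 and 9.89 CPM in every library, nearly all of it Egfl7. The 6 fibroblast markers summed to 4.39 to 7.24 CPM, mostly Col1a1 (3.38 to 6.08 CPM). The 6 immune markers summed to 0.76 to 1.55 CPM, mostly Cd74 (0.602 to 1.3 CPM). Pdgfrb, at 0.444 to 1.41 CPM, was called lower with TAZ siRNA under dDAVP and with dDAVP under TAZ siRNA. Egfl7 and Atp6v1b1 were called higher with dDAVP under TAZ siRNA and were called in no other comparison of groups. The mean of Egfl7 there was 7.66 CPM with vehicle and 9.55 with dDAVP. Some of these levels reach those of Adm and Angptl4, and their part in the results below was not tested.

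Upstream sequences are shown for 4 genes that behaved differently, chosen with their values known, so that the letters HIF reads can be seen beside the values. Of the 9 genes, 7 had a promoter in the RefSeq table (GRCm38.p6), with 12 windows in all, each of 250 bases ending just before a transcript start. Cores ACGTG and GCGTG, on either strand, are in capitals.

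Ankrd37 (chr8:45999851-46000100, minus strand): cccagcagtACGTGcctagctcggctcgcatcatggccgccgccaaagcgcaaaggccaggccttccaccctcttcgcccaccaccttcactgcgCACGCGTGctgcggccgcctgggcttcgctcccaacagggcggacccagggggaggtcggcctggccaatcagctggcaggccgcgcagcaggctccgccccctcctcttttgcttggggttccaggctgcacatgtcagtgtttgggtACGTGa
Mxi1 (chr19:53329163-53329412, plus strand, the downstream start): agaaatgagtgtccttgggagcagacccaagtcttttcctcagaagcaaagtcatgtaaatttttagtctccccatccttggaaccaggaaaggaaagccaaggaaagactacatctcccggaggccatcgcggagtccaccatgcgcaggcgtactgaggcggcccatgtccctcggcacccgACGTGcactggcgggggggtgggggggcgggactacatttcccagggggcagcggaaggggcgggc
Vegfa (chr17:46032378-46032627, minus strand, the upstream start): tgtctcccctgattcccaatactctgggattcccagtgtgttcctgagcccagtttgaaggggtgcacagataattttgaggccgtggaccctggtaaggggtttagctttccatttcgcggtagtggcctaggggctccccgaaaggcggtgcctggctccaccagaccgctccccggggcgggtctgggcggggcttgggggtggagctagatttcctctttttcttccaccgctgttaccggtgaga
Edn1 (chr13:42301226-42301475, plus strand): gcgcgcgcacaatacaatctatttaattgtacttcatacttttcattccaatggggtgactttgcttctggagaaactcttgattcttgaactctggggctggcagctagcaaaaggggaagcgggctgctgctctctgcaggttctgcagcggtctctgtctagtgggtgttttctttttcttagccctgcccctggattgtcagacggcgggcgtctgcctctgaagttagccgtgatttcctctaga

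The Ankrd37 window held 4 HIF cores, at -241, -155, -152 and -6 from the start, of which those at -155 and -152 lie on opposite strands and overlap in the run CACGCGTG. The Mxi1 window held 1 (ACGTG at -66). Neither the Vegfa nor the Edn1 window held one, nor did the unprinted window of the upstream Mxi1 start (chr19:53310256-53310505). Of the windows not printed, Adm had 2 cores (GCGTG at -90 and -54, both on the opposite strand), Car9 1 (ACGTG at -18, opposite strand), Kdm3a 1 (GCGTG at -27 from the start of NM_001038695, in 1 of its 3 windows), the second downstream window of Mxi1 1 (ACGTG at -25), and the downstream start of Vegfa 2. Among all 32851 promoter windows of the same length, 16.6% held ACGTG, 28.2% held GCGTG and 38.6% held either, so a core by itself is common. The palindromic cAMP response element TGACGTCA, present in 1.55% of all windows, was in none of the 12, and its shorter form TGACG, present in 17.8%, was only in the downstream Vegfa window, where it overlaps an ACGTG. The TEAD motif CATTCC, read by the DNA-binding partners of TAZ and present in 12.6% of windows, was only in that of Edn1, at -207. A match is a description of letters in these windows and not of binding. Sequence outside the windows was not searched, so a window without a core does not show that its gene lacks one.

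The 9 genes covered a wide range of levels. By the authors' FPKM, which divides by transcript length and so allows levels of different genes to be set side by side, the means over the 12 libraries were 48.3 for Ndrg1, 27.2 for Kdm3a, 17.7 for Mxi1, 7.79 for Edn1, 7.5 for Vegfa, 3.83 for Ankrd37, 0.531 for Angptl4, 0.244 for Adm and 0.0537 for Car9. Each gene was above the next in every library, except that Edn1 and Vegfa changed places between libraries, as did Angptl4 and Adm. Of the 9, 8, all but Car9, passed the filter on low counts and were tested.

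**Figure D1:**
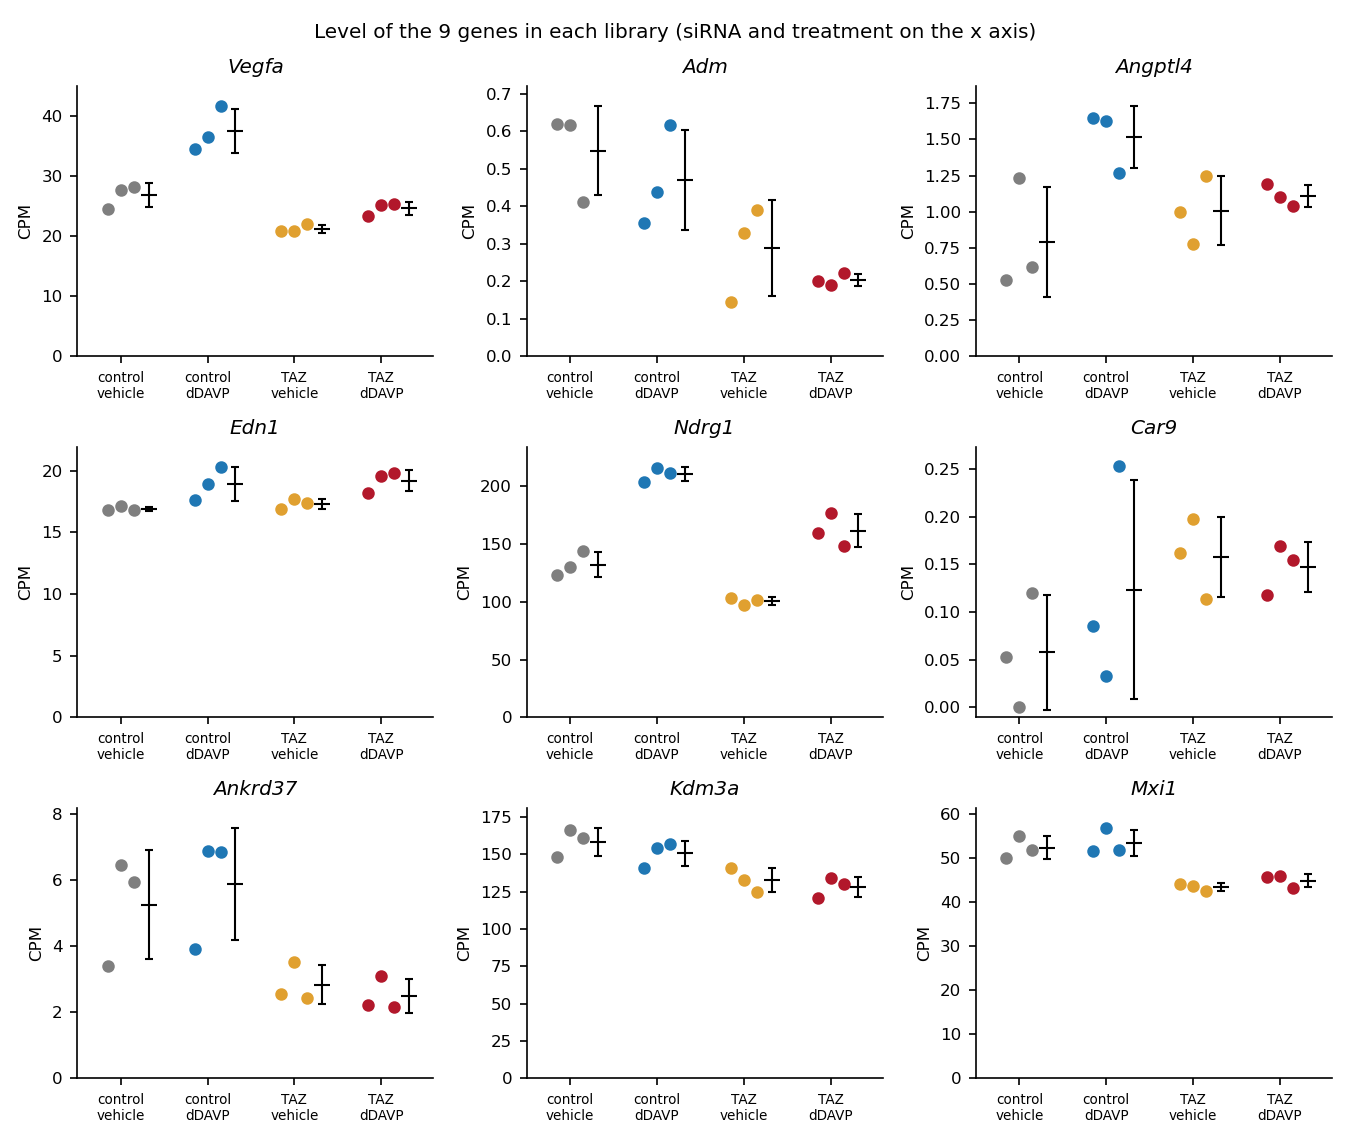
Level of each of the 9 genes in the 12 libraries. The y axis is CPM on a linear scale, points are libraries (replicates 1 to 3 from left to right within a group), and the black bar beside them is the mean ± SD (n = 3). Vegfa and Ndrg1 are higher with dDAVP and lower with TAZ siRNA, and Kdm3a and Mxi1 are lower with TAZ siRNA, while Car9 is at or close to 0 throughout.

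Vegfa encodes vascular endothelial growth factor A, the main growth signal for capillary endothelium. It was at 24.5, 27.7 and 28.2 CPM in the 3 libraries with control siRNA and vehicle, and at 34.4, 36.4 and 41.6 with control siRNA and dDAVP. With TAZ siRNA it was at 20.9, 20.8 and 22 CPM with vehicle and at 23.4, 25.2 and 25.3 with dDAVP. The dDAVP libraries lay above the vehicle libraries under each siRNA, and the TAZ siRNA libraries below the control ones under each treatment. The groups with control siRNA and vehicle (26.8 ± 2.04 CPM) and with TAZ siRNA and dDAVP (24.6 ± 1.04 CPM, SD, n = 3 each) overlapped. In the edgeR quasi-likelihood test, Vegfa rose with dDAVP under control siRNA by 0.50 ± 0.07 on the log2 scale (1.41-fold; SE; adjusted p = 3.9e-05). Under TAZ siRNA it rose by 0.23 ± 0.07 (1.17-fold, adjusted p = 0.0431), a call that was lost when any 1 of 5 of the 6 libraries compared was left out (adjusted p up to 0.159). TAZ siRNA lowered Vegfa with a log2 change of -0.35 ± 0.07 with vehicle (adjusted p = 0.00526) and -0.62 ± 0.07 with dDAVP (adjusted p = 1.84e-05). In bulk samples such as these, fewer cells expressing a gene and less RNA per cell cannot be told apart.

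The transcript table gives Vegfa (chr17:46016993-46032377, mm10) 10 models, of which 7 begin at the upstream start whose window is printed above. These 7 held 84.4% to 96.1% of the gene's estimated counts in the 12 libraries, so the gene's values are mainly those of that start. Their level was 25.1 ± 1.43 CPM in the control siRNA and vehicle group, 34.5 ± 4.18 with control siRNA and dDAVP, 19.5 ± 0.271 with TAZ siRNA and vehicle and 22 ± 0.93 with TAZ siRNA and dDAVP (SD, n = 3 each).

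Of the 9 other ligand and receptor genes of the VEGF system, the signalling receptor gene Kdr had no count, and Flt1 was between 1.35 and 1.54 CPM in the group means. Nrp1, a co-receptor that binds VEGF-A, went the other way from Vegfa. It fell with dDAVP by 0.49 ± 0.06 under control siRNA (adjusted p = 1.26e-05) and by 0.71 ± 0.06 under TAZ siRNA (adjusted p = 2.1e-07), from 43.6 ± 2.34 to 30.8 ± 1.52 CPM and from 57.3 ± 0.972 to 34.7 ± 3.33 CPM. Nrp1 and its relative Nrp2 rose with TAZ siRNA under vehicle (0.38 ± 0.06, adjusted p = 0.00098, and 0.52 ± 0.07, adjusted p = 0.000363), as did the lymphatic receptor gene Flt4 (0.76 ± 0.22, adjusted p = 0.0496). With dDAVP present none of these 3 passed the test (adjusted p = 0.113, 0.0569 and 0.082). Vegfb, a ligand of FLT1, fell with dDAVP under control siRNA by 0.17 ± 0.05 (adjusted p = 0.0172). With dDAVP under TAZ siRNA, Nrp2 fell (-0.24 ± 0.07, adjusted p = 0.0364). Of these 9, 7 were tested in edgeR: 2 were called lower with dDAVP under each siRNA, 3 higher with TAZ siRNA under vehicle (2 in limma-voom), and none with TAZ siRNA under dDAVP (1 higher in DESeq2, none in limma-voom, and 3 at an unadjusted p under 0.05 in edgeR). Among all genes tested in edgeR, 9.48% and 4.41% were called lower with dDAVP under control and TAZ siRNA. With TAZ siRNA 3.19% and 5.77% of all genes were called higher under vehicle and dDAVP.

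Edn1 encodes endothelin-1, a vasoconstrictor peptide that in the collecting duct is known to restrain sodium and water reabsorption. It was at 16.8, 17.1 and 16.8 CPM with control siRNA and vehicle, and at 17.6, 18.9 and 20.3 with control siRNA and dDAVP. With TAZ siRNA it was at 16.9, 17.7 and 17.4 CPM with vehicle and at 18.2, 19.6 and 19.8 with dDAVP. The vehicle and dDAVP libraries did not overlap under either siRNA, but the distance was small. The dDAVP rise under control siRNA was 0.18 ± 0.06 (1.13-fold, adjusted p = 0.0449), and it was lost on leaving out any 1 of 5 of the 6 libraries compared (adjusted p up to 0.219). Under TAZ siRNA the difference was 0.16 ± 0.06 (adjusted p = 0.103). Between siRNAs Edn1 differed by 0.02 ± 0.06 with vehicle (95% interval -0.10 to 0.15) and by 0.01 ± 0.06 with dDAVP (-0.12 to 0.13), so a change of the size seen for Vegfa lies outside these intervals.

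Around Edn1, the converting enzyme Ece1, which cuts the peptide's precursor, rose with dDAVP under control siRNA (0.45 ± 0.15, adjusted p = 0.0375) and fell with TAZ siRNA (-0.52, adjusted p = 0.0497 with vehicle, and -0.64, adjusted p = 0.00939 with dDAVP). Edn2, a second endothelin, was at 0.908 ± 0.1 CPM with control siRNA and dDAVP and at 0.449 ± 0.172 with TAZ siRNA and dDAVP, a log2 change of -1.05 ± 0.31 (adjusted p = 0.0347). The protease gene Furin rose with dDAVP under both siRNAs (0.14 ± 0.04, adjusted p = 0.0135, and 0.19 ± 0.04, adjusted p = 0.00186). The receptor gene Ednrb, through which the duct's own endothelin is known to act, had no count in any library, and Ednra had 3 counts in all 12.

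Adm encodes adrenomedullin, a vasodilator peptide, and was close to the limit of what these libraries resolve: 9 to 35 counts per library, where 3 counts correspond to 0.0486 to 0.0665 CPM. It was at 0.619, 0.616 and 0.412 CPM with control siRNA and vehicle and at 0.356, 0.439 and 0.616 with control siRNA and dDAVP. With TAZ siRNA it was at 0.146, 0.329 and 0.391 CPM with vehicle and at 0.202, 0.19 and 0.222 with dDAVP. All TAZ siRNA libraries lay below all control ones under the same treatment, but the differences of -0.93 ± 0.37 with vehicle (adjusted p = 0.157) and -1.20 ± 0.41 with dDAVP (adjusted p = 0.0643) did not pass the test. For dDAVP the 95% interval was wide, from -0.95 to 0.54 under control siRNA, so a change of that width was not detectable at this depth. The whole of Adm lies within the annotated span of LOC115486471, which had 0 to 13 counts, so reads of these genes may have been divided between them.

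Several receptor partners of adrenomedullin passed the test. Ramp1, Ramp2 and Ramp3, the accessory proteins that turn the calcitonin-like receptor into an adrenomedullin or CGRP receptor, all rose with dDAVP under control siRNA. The log2 changes were 0.91 ± 0.15 (adjusted p = 0.000217), 0.80 ± 0.17 (adjusted p = 0.00263) and 1.49 ± 0.50 (adjusted p = 0.0354), and under TAZ siRNA they were 0.77 (adjusted p = 0.00159), 0.71 (adjusted p = 0.0146) and 1.74 (adjusted p = 0.0297). Their levels were low: Ramp1 went from 1.56 ± 0.105 to 2.9 ± 0.217 CPM and Ramp3 from 0.115 ± 0.0272 to 0.33 ± 0.142 under control siRNA. Ramp3 had only 19 counts summed over the control siRNA and vehicle group and 58 with dDAVP, below the 88 and 82 of Adm. The gene of the receptor itself, Calcrl, had 2 counts in all 12 libraries. Adm2, a related peptide, rose with dDAVP under control siRNA from 3.76 ± 0.469 to 6.33 ± 0.725 CPM (0.76 ± 0.12, adjusted p = 0.000117). With dDAVP present it was lower with TAZ siRNA, at 3.75 ± 0.137 CPM (-0.77 ± 0.12, adjusted p = 0.000321), as was Ramp2 (-0.55, adjusted p = 0.0421). In all, 4 of the 5 tested genes of this list were called higher with dDAVP under control siRNA and 3 under TAZ siRNA in edgeR, and 3 and 2 in DESeq2. Among all genes tested in edgeR, 9.72% and 6.38% were called higher in these comparisons.

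Angptl4 encodes a secreted inhibitor of lipoprotein lipase. With control siRNA it was at 0.53, 1.23 and 0.618 CPM with vehicle and at 1.65, 1.63 and 1.27 with dDAVP. With TAZ siRNA it was at 1.0, 0.774 and 1.25 CPM with vehicle and at 1.19, 1.1 and 1.04 with dDAVP. The control libraries did not overlap between treatments, though replicate 2 of the vehicle group came close to replicate 3 of the dDAVP group, and with TAZ siRNA the treatments overlapped. Angptl4 rose with dDAVP under control siRNA by 0.97 ± 0.27 (1.96-fold, adjusted p = 0.015). This rests on 30 to 100 counts per library: leaving out 1 library gave log2 changes between 0.75 and 1.41, and the call was lost in 4 of the 6 cases (without vehicle replicate 1 or 3, or dDAVP replicate 1 or 2; adjusted p up to 0.0832). Under TAZ siRNA the difference was 0.15 ± 0.26 (adjusted p = 0.791).

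Of the list around Angptl4, Ppard, whose product is a fatty acid receptor known to induce Angptl4, rose with dDAVP under both siRNAs (0.18 ± 0.05, adjusted p = 0.0156, and 0.24 ± 0.05, adjusted p = 0.00431). Cpt1a, the enzyme that admits long-chain fatty acids to mitochondria, rose by 0.69 ± 0.04 (adjusted p = 5.01e-10) and 0.49 ± 0.04 (adjusted p = 6.01e-08). Cpt1a fell with TAZ siRNA by 0.23 ± 0.04 with vehicle (adjusted p = 0.00117) and by 0.43 ± 0.04 with dDAVP (adjusted p = 3.11e-06). Lpl, the enzyme that ANGPTL4 blocks, and Pparg had no count in any library. The other 5 tested genes of the 12 in this list were called in no comparison of 2 groups.

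Ndrg1 encodes a cytoplasmic protein induced by hypoxia and by differentiation, and a substrate of the kinase SGK1. By FPKM it was the most abundant of the 9. It was at 123, 130 and 144 CPM with control siRNA and vehicle and at 204, 216 and 212 with control siRNA and dDAVP. With TAZ siRNA it was at 103, 97.0 and 102 CPM with vehicle and at 160, 177 and 148 with dDAVP. The 4 groups did not overlap at all, and their order was control with dDAVP, TAZ siRNA with dDAVP, control with vehicle and TAZ siRNA with vehicle. The dDAVP rise was 0.68 ± 0.06 under control siRNA (1.61-fold, adjusted p = 5.63e-07) and 0.69 ± 0.06 under TAZ siRNA (1.62-fold, adjusted p = 9.55e-07). The TAZ siRNA change was -0.41 ± 0.06 with vehicle (adjusted p = 0.000984) and -0.40 ± 0.06 with dDAVP (adjusted p = 0.000431). The difference between the dDAVP responses under the 2 siRNAs was 0.01 ± 0.09, with a 95% interval of -0.17 to 0.19 (adjusted p = 0.991).

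Of its relatives, Ndrg3 was between 69.8 and 73.3 CPM in the group means and was called in no comparison. Ndrg4 was called in 1, lower with TAZ siRNA under vehicle (-0.50 ± 0.10, adjusted p = 0.00792). Among the kinases that phosphorylate NDRG1, Sgk1 was called in none, while Sgk2 rose with dDAVP under both siRNAs (0.80 ± 0.12, adjusted p = 7.09e-05, and 0.62 ± 0.12, adjusted p = 0.00159), from 2.93 ± 0.284 to 5.08 ± 0.0187 CPM with control siRNA. Sgk3 fell with dDAVP under TAZ siRNA (-0.13 ± 0.04, adjusted p = 0.0482).

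Car9 encodes carbonic anhydrase IX, a cell-surface enzyme often used as a marker of hypoxic tissue. It had 3, 0 and 7 counts in the libraries with control siRNA and vehicle, 5, 2 and 14 with control siRNA and dDAVP, 10, 12 and 7 with TAZ siRNA and vehicle, and 7, 8 and 7 with TAZ siRNA and dDAVP. The highest library was at 0.253 CPM. A count of 0 in 1 library allows up to 0.0637 CPM there, for counting error only. Car9 failed the filter on low counts, and in a fit without that filter it passed in none of the 4 comparisons of 2 groups (adjusted p = 0.559, 1, 0.534 and 0.986). It also overlaps Arhgef39 over 1722 bases, which had 228 to 420 counts. Other carbonic anhydrases were well above it. The cytosolic enzyme gene Car2 rose with dDAVP by 0.57 ± 0.04 under control siRNA (adjusted p = 3.23e-08), from 58.6 ± 3.54 to 86.0 ± 1.39 CPM, and by 0.30 ± 0.04 under TAZ siRNA (adjusted p = 0.000104). Car12, a membrane enzyme that is also a HIF target, rose with dDAVP by 0.72 ± 0.07 under control siRNA (adjusted p = 6.37e-07) and by 0.25 ± 0.07 under TAZ siRNA (adjusted p = 0.027), and it rose with TAZ siRNA under vehicle (0.30 ± 0.07, adjusted p = 0.0152). Car15, a membrane-anchored enzyme, had the greatest called rise with dDAVP under control siRNA (0.83 ± 0.14, adjusted p = 0.000409), and the mitochondrial Car5b under TAZ siRNA (0.48 ± 0.10, adjusted p = 0.00436). Of the 7 tested carbonic anhydrases, 4 were called higher with dDAVP under control siRNA and 3 under TAZ siRNA, against 9.72% and 6.38% of all genes tested. With TAZ siRNA under vehicle only Car12 was called. With TAZ siRNA under dDAVP 2 were called lower, Car15 (from 2.92 ± 0.236 to 2.13 ± 0.293 CPM) and Car2 (from 86.0 ± 1.39 to 70.1 ± 1.59 CPM), and none higher. Of all genes tested, 3.19% were called higher under vehicle and 4.97% lower under dDAVP.

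Ankrd37 encodes a small ankyrin-repeat protein and is a direct HIF-1 target. Its level was 3.38, 6.44 and 5.93 CPM with control siRNA and vehicle and 3.92, 6.86 and 6.84 with control siRNA and dDAVP. With TAZ siRNA it was 2.54, 3.51 and 2.43 CPM with vehicle and 2.22, 3.08 and 2.17 with dDAVP. With dDAVP every TAZ siRNA library lay below every control library, and with vehicle replicate 1 of the control group fell below replicate 2 of the TAZ siRNA group. The TAZ siRNA change was -1.25 ± 0.27 with dDAVP (0.419-fold, adjusted p = 0.00772), the greatest fall among the members called. With vehicle it was -0.90 ± 0.26 and just missed the threshold (adjusted p = 0.0574). There the call varied with the setting: with a replicate block the adjusted p was 0.00419, with DESeq2 0.0422 and without replicate 1 of the control group 0.0118 (a change of -1.14), while without the filter or with limma-voom it was 0.12. The dDAVP differences were 0.18 ± 0.25 under control siRNA (adjusted p = 0.687) and -0.17 ± 0.28 under TAZ siRNA (adjusted p = 0.772). Their 95% intervals, -0.35 to 0.71 and -0.77 to 0.43, were wide, and the first includes a rise as large as that of Vegfa. Ankrd37 (chr8:45996908-46000414) overlaps Ufsp2 by 51 bases, and the model whose start is shown above held 70.5% to 88.8% of its counts. The other 2 models, which RefSeq predicts, start farther upstream and span the window printed above.

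Of all tested genes outside the 9, Egln3, Bnip3 and Alpk3 had the profile over the 12 libraries most like that of Ankrd37. Likeness was the root mean square difference of log2 CPM after centring each gene on its own mean, and Ankrd37 itself varied by 0.617 on that scale. Egln3, an oxygen-sensing prolyl hydroxylase, stood at 0.203 from it, Bnip3, a mitophagy receptor, at 0.23, and Alpk3 at 0.27. Alpk3 had only 16 to 57 counts per library. Egln3 was at 20, 32.5 and 27.5 CPM with control siRNA and vehicle, 24.0, 35.7 and 37.6 with dDAVP, and between 10.4 and 15.0 in the 6 libraries with TAZ siRNA. Bnip3 was at 39.8, 54.2 and 59.7 CPM, then 52.9, 62.6 and 68.9, and between 22.2 and 30.8 with TAZ siRNA. In Ankrd37, Egln3 and Bnip3 replicate 1 was the lowest library of each control siRNA group, and replicate 2 the highest of each TAZ siRNA group. Egln3 and Bnip3 were picked for likeness over these same libraries, so this shared order and their falls are no separate support. Egln3 fell with TAZ siRNA by 1.21 ± 0.24 with vehicle (adjusted p = 0.019) and by 1.45 ± 0.24 with dDAVP (adjusted p = 0.00504), and Bnip3 by 1.15 ± 0.17 (adjusted p = 0.00486) and 1.30 ± 0.17 (adjusted p = 0.00134).

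**Figure D2:**
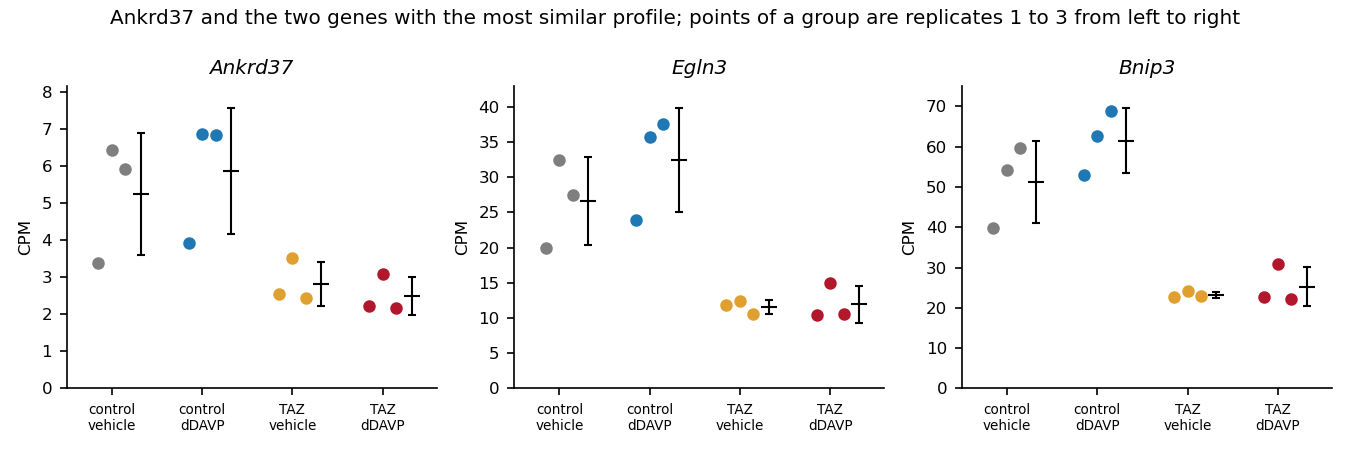
Ankrd37 with Egln3 and Bnip3, the 2 genes of most similar profile. The y axis is CPM, points are libraries (replicates 1 to 3 from left to right) and the black bar is the mean ± SD (n = 3). For Egln3 and Bnip3 the 6 libraries with TAZ siRNA lie below all control siRNA libraries, Egln3 between 10.4 and 15.0 CPM. For Ankrd37, TAZ siRNA vehicle replicate 2 (3.51 CPM) is above control siRNA vehicle replicate 1 (3.38 CPM). In each panel replicate 1 is the lowest of each control siRNA group.

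Kdm3a encodes a histone H3 lysine 9 demethylase that itself needs oxygen. It was at 148, 166 and 161 CPM with control siRNA and vehicle, 141, 154 and 157 with control siRNA and dDAVP, 141, 133 and 125 with TAZ siRNA and vehicle, and 121, 134 and 130 with TAZ siRNA and dDAVP. The siRNA groups did not overlap under either treatment, while the vehicle and dDAVP libraries did under both siRNAs. TAZ siRNA lowered Kdm3a, with log2 changes of -0.27 ± 0.06 with vehicle (0.831-fold, adjusted p = 0.00811) and -0.25 ± 0.06 with dDAVP (0.844-fold, adjusted p = 0.00843). For dDAVP the interval under control siRNA ran from -0.18 to 0.06 (adjusted p = 0.532), so a rise as large as that of Vegfa or Ndrg1 lies outside it. The 6 transcript models of Kdm3a cannot be followed one by one, since the share of the curated NM_001038695 ran from 11.9% to 82.2% between libraries.

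Of 11 other JmjC histone demethylases that were listed, all tested, 1 was called with TAZ siRNA under each treatment: Kdm5b, which removes H3 lysine 4 methylation, fell with log2 changes of -0.13 ± 0.03 (adjusted p = 0.0343) and -0.18 ± 0.04 (adjusted p = 0.00276). Among all genes tested, 6.3% and 10.7% were called in these comparisons, so the list is near that background. Kdm4b and Kdm4c stand in this list and among the other HIF targets below, and Kdm2b only among the latter. The paralogues Kdm3b and Jmjd1c were called in no comparison, with Kdm3b between 120.0 and 129.0 CPM in the group means. With dDAVP under control siRNA, Kdm4a was called lower (-0.10 ± 0.03, adjusted p = 0.0276).

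Mxi1 encodes a repressor that competes with MYC for its partner MAX. It was at 50.1, 55.2 and 52.0 CPM with control siRNA and vehicle, 51.6, 56.9 and 51.8 with control siRNA and dDAVP, 44.1, 43.8 and 42.5 with TAZ siRNA and vehicle, and 45.7, 45.9 and 43.2 with TAZ siRNA and dDAVP. The siRNA groups stood clear of each other and the treatments overlapped. The TAZ siRNA change was -0.28 ± 0.05 with vehicle (0.822-fold, adjusted p = 0.00268) and -0.27 ± 0.05 with dDAVP (0.832-fold, adjusted p = 0.00217). The dDAVP difference was 0.04 ± 0.05 under control siRNA (95% interval -0.06 to 0.15, adjusted p = 0.637). The transcript table holds 13 models in 2 classes of start. The 9 downstream models together held 64.3% to 86.1% of the counts, and NM_010847, 1 of the 3 that begin right after the window printed above, held 48.9% to 72.4%. The 4 upstream models had mean levels of 16.2 ± 2.52 and 14.7 ± 4.24 CPM in the control siRNA groups and 10.1 ± 4.15 and 11.4 ± 3.12 in the TAZ siRNA groups, vehicle first, and were below the downstream models in every library. The downstream models were at 36.2 ± 2.65 and 38.7 ± 3.65 CPM with control siRNA and at 33.4 ± 4.98 and 33.5 ± 4.44 with TAZ siRNA. In both classes the siRNA groups overlapped under each treatment, and which start the fall belongs to was not tested.

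Among 13 other listed genes of the MYC and MAX network, Mxd4, another MAX-binding repressor, rose with TAZ siRNA by 0.25 ± 0.06 with vehicle (adjusted p = 0.0161) and 0.33 ± 0.06 with dDAVP (adjusted p = 0.0011), from 18.5 ± 0.625 to 22.1 ± 0.999 and from 17.7 ± 1.16 to 22.6 ± 0.281 CPM. Mycl fell with TAZ siRNA by 0.33 ± 0.08 (adjusted p = 0.0138) and 0.34 ± 0.08 (adjusted p = 0.00855), and Mycn by 0.26 ± 0.05 (adjusted p = 0.00393) and 0.19 ± 0.05 (adjusted p = 0.0221). Mlxip, a glucose-responsive partner of MLX, rose with dDAVP under both siRNAs (0.30 ± 0.05, adjusted p = 0.000122, and 0.30 ± 0.05, adjusted p = 0.000206).

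**Figure D3:**
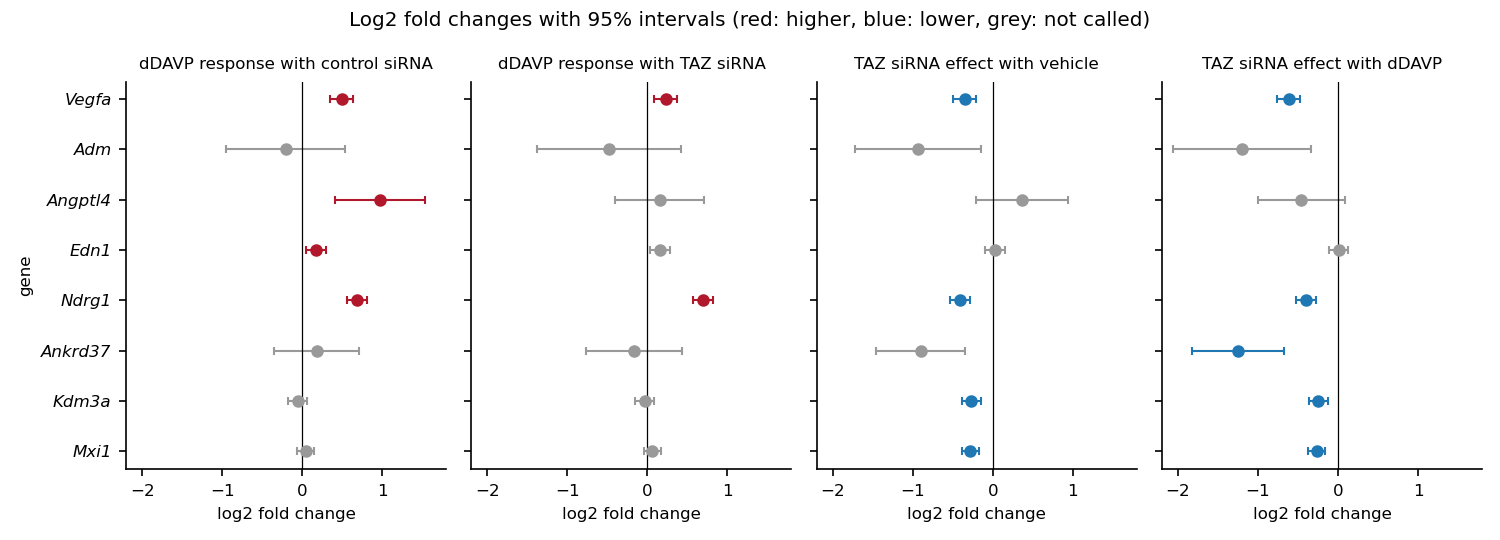
Log2 fold changes of the 8 genes tested in the 4 comparisons of 2 groups. Points are edgeR estimates, bars their 95% intervals, red is called higher, blue called lower and grey not called at an adjusted p of 0.05. Adm, Angptl4 and Ankrd37 have wide intervals, and every call is to the right of 0 for dDAVP and to the left of 0 for TAZ siRNA.

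Counted together, 4 of the 8 tested genes were called higher with dDAVP under control siRNA and none lower, where 19.2% of all 15932 genes tested were called in that comparison (9.72% higher and 9.48% lower). Under TAZ siRNA 2 of 8 were called higher (Vegfa and Ndrg1) and none lower, with 10.8% of all genes called (6.38% higher and 4.41% lower). With TAZ siRNA under vehicle 4 of 8 were called lower (Vegfa, Ndrg1, Kdm3a and Mxi1) and none higher, with 6.3% of all genes called (3.19% higher and 3.11% lower). With TAZ siRNA under dDAVP 5 of 8 were called lower (those 4 and Ankrd37) and none higher, with 10.7% of all genes called (5.77% higher and 4.97% lower). The median log2 change of the 8 was 0.18, 0.11, -0.32 and -0.43 in these comparisons, where the median of all tested genes was between -0.00125 and 0.00252. Neighbouring comparisons share a group of 3 libraries, so their counts are not independent of each other.

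Read by separation alone, with all 3 libraries of a group above or below all 3 of the other, 4 of the 8 were higher with dDAVP under control siRNA (15.5% of all genes were), and 3 under TAZ siRNA (12.3%). With TAZ siRNA 5 were lower under vehicle (9.65% of all genes) and 7, all but Edn1, under dDAVP (11.7%). None was separated in the opposite direction in any of the 4, where 20.3%, 14.7%, 13.8% and 17.3% of all genes were.

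Whether TAZ siRNA changed the dDAVP response was tested as the difference between the 2 responses. None of the 8 passed in edgeR, in DESeq2 or in limma-voom, and 5 of all 15932 genes did in edgeR (0.0314%, with 0.0126% higher and 0.0188% lower). At an unadjusted p under 0.05 there were 2 in edgeR, 1 in DESeq2 and 2 in limma-voom. In edgeR these were Vegfa, whose response differed by -0.27 ± 0.10 on the log2 scale (TAZ siRNA minus control, adjusted p = 0.458), and Angptl4 (-0.82 ± 0.38, adjusted p = 0.596). The interval for Vegfa ran from -0.47 to -0.06.

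Of 35 other HIF targets that are not glycolytic, 29 were tested. Of these 29, 15 were called lower and 1 higher with TAZ siRNA under vehicle, and 17 lower and 1 higher under dDAVP, with median log2 changes of -0.22 and -0.28. Among all genes tested, 3.11% and 4.97% were called lower in these 2 comparisons, and 3.19% and 5.77% higher. Besides Egln3 and Bnip3, the greatest falls under dDAVP were in Fam162a (-1.01 ± 0.10, adjusted p = 1.21e-05), a mitochondrial protein, and P4ha2 (-0.67 ± 0.09), a collagen prolyl hydroxylase. Under vehicle, Tgfb3, a growth factor gene, came next after Egln3 and Bnip3 (-0.59 ± 0.07, adjusted p = 0.000193). With dDAVP 4 of these 29 were called higher and 1 lower under control siRNA, with a median of 0.05, and 1 higher and 2 lower under TAZ siRNA, with a median of 0.04. Of all genes tested, 19.2% and 10.8% were called in these comparisons, so the list is near that background. The genes called higher under control siRNA were Car12, Hmox1, the heme-degrading enzyme (0.54 ± 0.10, adjusted p = 0.000533), Fam162a (0.39 ± 0.09, adjusted p = 0.00824) and Vldlr, a lipoprotein receptor (0.26 ± 0.06, adjusted p = 0.00848). Plod2, a collagen lysyl hydroxylase, was called lower with dDAVP under TAZ siRNA (-0.27 ± 0.06, adjusted p = 0.00355). Pdgfb, a growth factor that endothelium is known to send to pericytes, was called lower with dDAVP under both siRNAs (-0.39 ± 0.05, adjusted p = 1.17e-05, and -0.29 ± 0.05, adjusted p = 0.000538).

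Of 21 tested glycolytic HIF targets, 16 were called lower with TAZ siRNA under vehicle and 18 under dDAVP, none higher, with medians of -0.37 and -0.52. With dDAVP 12 were called higher under control siRNA and 3 under TAZ siRNA, none lower, with medians of 0.21 and 0.06. Of all genes tested, 3.11% and 4.97% were called lower with TAZ siRNA under vehicle and dDAVP. With dDAVP 9.72% and 6.38% of all genes were called higher under control and TAZ siRNA. Ldha, lactate dehydrogenase A, rose by 0.59 ± 0.05 with dDAVP under control siRNA, close to Vegfa and Ndrg1, and Pdk1, which keeps pyruvate out of mitochondria, fell with TAZ siRNA by 0.80 ± 0.08 with vehicle and 0.91 ± 0.08 with dDAVP.

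**Figure D4:**
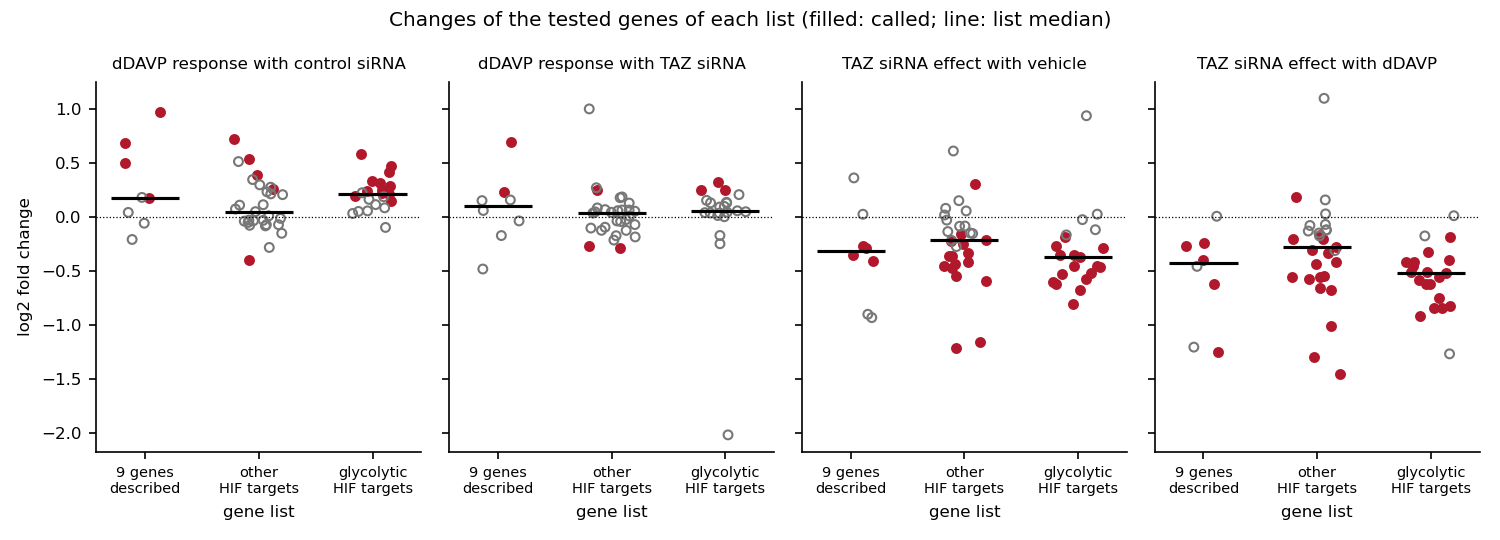
Log2 fold changes of the tested genes of 3 lists in the 4 comparisons: the genes described here (8 tested), other HIF targets (29) and glycolytic HIF targets (21). Each circle is a gene, filled where called, and the black line is the median of the list. The medians of all 3 lists are below 0 in both TAZ siRNA panels, at -0.32, -0.22 and -0.37 with vehicle.

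Of 12 tested genes of the HIF machinery itself, 3 were called lower with TAZ siRNA under each treatment, namely Egln3, Egln1 and Cited2. Among all genes tested, 3.11% were called lower with TAZ siRNA under vehicle and 4.97% under dDAVP. The EGLN enzymes restrain HIF-alpha and are themselves HIF targets, so Egln1 and Egln3 stand in both lists, as Car12 does among the carbonic anhydrases. DESeq2 called 5 of the 12 lower under vehicle. Egln1 fell by 0.47 ± 0.06 (adjusted p = 0.000252) and 0.55 ± 0.06 (adjusted p = 1.75e-05), and Cited2, which competes with HIF for the coactivator CBP/p300, by 0.18 ± 0.03 (adjusted p = 0.00457) and 0.16 ± 0.03 (adjusted p = 0.00447). Hif1a was at 400.0 ± 13.9 and 362.0 ± 29.0 CPM with vehicle (control and TAZ siRNA; -0.16 ± 0.05, adjusted p = 0.0739) and at 400.0 ± 9.54 and 374.0 ± 15.8 with dDAVP (-0.11 ± 0.05, adjusted p = 0.17). For Epas1 the levels with vehicle were 12.3 ± 0.536 CPM under control siRNA and 12.8 ± 0.786 under TAZ siRNA (0.04, adjusted p = 0.786). The protein of either was not measured. With dDAVP, Arnt was called lower under control siRNA (-0.09 ± 0.03, adjusted p = 0.0435) and no other gene of this list was called under either siRNA.

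For the other members called in at least 1 comparison the 3 nearest profiles are named in the same way. Those of Vegfa, which varied by 0.318 around its mean, were Grhpr (0.072), Acot1 (0.094) and the glycolytic HIF target Hk2 (0.101). Those of Ndrg1 (0.407) were Lbp (0.085), Dgat2 (0.086) and Sptbn5 (0.087). For Kdm3a (0.148) they were Rlf (0.043), Narf (0.053) and Tfrc (0.054), the last an iron uptake receptor on the list of other HIF targets, and for Mxi1 (0.148) Map2k1 (0.05), Asb4 (0.051) and Lrrc1 (0.051). Those of Angptl4 (0.469) were farther off, at 0.235 for Man2c1os, 0.262 for Cerk and 0.267 for Mfsd4a. Man2c1os had only 11 to 32 counts per library. Edn1 varied least (0.098), and Pxk (0.036), Dpcd (0.043) and Wdr4 (0.046) were nearest.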

How the data were processed

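Messenger RNA of 12 mpkCCDc11 libraries was sequenced, from TruSeq libraries per the labels' protocols. Bowtie 0.12.2, mm8 and mm10 appear in the submitters' processing notes, without a role. No counting program is named there. Estimated counts were deposited for genes and transcripts, per the file headers and values: whole numbers, not normalised. Among transcripts, 100% of counts of 2 to 20 equalled FPKM times length times a factor per library, rounded up (tolerance 0.05), so they are estimates and not tallies. How reads of overlapping or similar genes were divided is not given. The FPKM that the authors deposited, per the file headers, served only to order levels between genes. The tables' other 24 per-sample columns were left out.

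The design had assumed whole counts, and the estimated counts, already whole, were tested as counts. Of 45777 genes, 15932 passed filterByExpr (minimum count 10) and were fitted in edgeR 4.0.16 (R 4.3.3): TMM, robust quasi-likelihood F test, 1 mean per group over all 12 libraries, Benjamini-Hochberg adjustment over all genes tested, called at an adjusted p under 0.05. The biological coefficient of variation was 5.11%. Standard errors and 95% intervals are Wald estimates from that fit. Alternatives were DESeq2 size factors, no filter, DESeq2 1.42.0, limma-voom (limma 3.58.1), the compared groups alone, a replicate block and each library left out. On simulated counts the fit recovered 71% of 100 genes changed by 0.5 on the log2 scale in the dDAVP comparison under control siRNA, over 15720 genes. For TAZ siRNA under dDAVP it recovered 62.5% of 96 such genes. Recovery was lowest, 54% of 100, for the difference of the dDAVP responses.

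The 9 genes and all lists were chosen with earlier results of these data known. All 9 are described. The rule for the other lists was to name the called genes of largest change, at most 4 per list and comparison, and ligands, receptors and paralogues that passed the filter. Not all genes the rule allows are named, and the choice among them was made with their values known. Chosen after their values were seen were also some list members without counts, Hif1a, Epas1, Ndrg3, Sgk1, Kdm3b and Jmjd1c. For each called member the 3 genes of nearest profile are named. Coordinates are those of the deposited tables and equal RefSeq GRCm38 for all 9. Library totals set the precision: 3 counts, the most that a count of 0 allows, are 0.0486 to 0.0665 CPM, and this covers counting error only. No replicate libraries agreed within sampling noise.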

Additional observations from a re-analysis of the deposited data

How the results depend on the processing

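Of 520 log2 changes of members under the alternatives, 498 kept their side of the threshold, 18 lost the call and 4 gained one. Among changes called in the main or the alternative fit, 0 reversed direction. Some changes called in neither did change sign, such as Ankrd37 with dDAVP under control siRNA (-0.0582 to 0.3965 over the alternatives). Vegfa with dDAVP under control siRNA and with TAZ siRNA under both treatments, Ndrg1 in all 4 comparisons of groups, Kdm3a and Mxi1 with TAZ siRNA under both, and Ankrd37 with TAZ siRNA under dDAVP (adjusted p from 0.000184 to 0.0457) kept their calls under each alternative run. With dDAVP under TAZ siRNA 1 member was called without the filter on low counts and 1 with limma-voom, against 2, as Vegfa lost its call (adjusted p = 0.0697 and 0.0751). Edn1 under control siRNA lost its call in the same settings (0.0602 and 0.0581). Adm with TAZ siRNA under dDAVP gained a call in the fit of the compared groups alone (0.045). Ankrd37 with TAZ siRNA under vehicle gained one with DESeq2 (0.0422). For the difference of the dDAVP responses, 12 of all genes were called without the filter and 87 with DESeq2, against 5.

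With 1 library left out in turn, members called ranged from 2 to 3 with dDAVP under control siRNA (all genes 2103 to 2685, against 3058), from 1 to 2 under TAZ siRNA (1118 to 1752, against 1719), from 4 to 5 with TAZ siRNA under vehicle (410 to 1435, against 1004), was 5 in each case under dDAVP (1049 to 1625, against 1711), and 0 for the difference (3 to 16, against 5). Members fell to 2 with dDAVP under control siRNA without control vehicle replicate 1 or 3 or control dDAVP replicate 2. They fell to 1 under TAZ siRNA without TAZ vehicle replicate 1, 2 or 3 or TAZ dDAVP replicate 2 or 3. The count of all genes under vehicle fell by over 1.5 times without control vehicle replicate 1 (504) or 3 (578) or TAZ vehicle replicate 2 (410) or 3 (511). Under dDAVP it did so without control dDAVP replicate 2 (1114) or 3 (1049) or TAZ dDAVP replicate 1 (1054) or 3 (1110). For dDAVP under TAZ siRNA it did so without TAZ vehicle replicate 2 (1118). Where an arm has 2 libraries, its spread is pooled with the other groups.

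The libraries share replicate numbers, but the 18 correlations of same-numbered deviations ran from -0.043 to 0.08, with 0 over 0.1, so the numbers were not taken to pair the libraries, although 7 of 12 libraries correlated best with their own number. With a replicate block, 4, 2, 5 and 5 members were called in the 4 comparisons and 2983, 1663, 968 and 1690 of all genes, with 0 members and 6 genes for the difference. The added member was Ankrd37 with TAZ siRNA under vehicle (adjusted p = 0.00419). Depth limits Adm, Car9 and Angptl4, which had 9 to 35, 0 to 14 and 30 to 100 counts per library.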
